A study of Homo sapiens with 8 samples.

Results

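Caco-2 cells, a human colorectal carcinoma line that forms an epithelial sheet, expressed 10 genes of lateral cell adhesion that are described here: CDH1, CDH17, CTNNA1, CTNND1, JUP, DSP, DSG2, DSC2, PKP2 and PKP3. They were chosen by name from the cadherin, catenin and desmosome genes among the 58735 genes of the deposited tables. The choice was made with earlier results of these data known, and other genes of these families are given further below. All 10 chosen genes were found and passed the filter on low counts that left 15084 genes. Messenger RNA was measured in 3 libraries of untreated cells, which received buffer (PBS), and 3 libraries of cells given M2-exo. M2-exo are exosomes, small secreted vesicles, and the labels trace them to THP-1, a human monocytic leukaemia line; M2 is the usual name of an alternatively activated macrophage state. All cells were wild type per the labels, which give no dose, no time of treatment and no separate culture for each library, so p-values reflect no more than the scatter among these libraries, and that scatter could be technical. The comparison asks how mRNA of an intestinal epithelial line differs once it has received M2-exo.

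Epithelial cells hold to their neighbours through adherens junctions and desmosomes, and both are built on cadherins, calcium-dependent adhesion proteins that span the membrane. In an adherens junction the tail of E-cadherin binds beta-catenin and p120-catenin, and alpha-catenin links the complex to actin. In a desmosome, desmogleins and desmocollins bind plakoglobin and plakophilins, and desmoplakin ties this plaque to keratin filaments. Loss of E-cadherin is a known mark of epithelial cells that take on mesenchymal features, and factors such as SNAI1 and ZEB1 are known to repress junction genes through E-box sequences.

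Upstream sequences from the RefSeq promoter table (build GRCh38.p14) were searched for 5 of the 10 genes: CTNNA1, DSC2, DSG2, DSP and JUP. These had 10 windows of 250 bases that end at a transcription start. No window was at hand for CDH1, CTNND1, PKP2 and PKP3. CDH17 was left out of the search, so the counts of matches in these genes do not cover it. The E-box CAGGTG was searched on both strands, where the other strand reads CACCTG. It was found in 4 of the 10 windows, 1 each from DSC2, DSG2, DSP and JUP, and 17.5% of all 35116 windows of that length held it. At least 2 matches were found in 1 window each of DSG2, DSP and JUP, as in 2.53% of all windows. These 3 windows are shown because the repressors that read these letters were also measured; the capitals mark the E-boxes, and a match is a description of letters, not of binding.
DSG2, chr18:31497927-31498176, plus strand: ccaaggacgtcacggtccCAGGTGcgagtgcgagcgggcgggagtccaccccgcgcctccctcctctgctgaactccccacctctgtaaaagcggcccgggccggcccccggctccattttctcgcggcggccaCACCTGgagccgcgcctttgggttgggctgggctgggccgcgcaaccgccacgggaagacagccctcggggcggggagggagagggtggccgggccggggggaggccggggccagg
DSP, chr6:7541421-7541670, plus strand: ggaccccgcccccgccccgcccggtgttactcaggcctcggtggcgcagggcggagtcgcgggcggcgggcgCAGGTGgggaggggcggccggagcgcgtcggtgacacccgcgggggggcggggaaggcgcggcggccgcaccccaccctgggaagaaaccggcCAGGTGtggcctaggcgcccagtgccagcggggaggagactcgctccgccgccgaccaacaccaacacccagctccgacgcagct
JUP, chr17:41785977-41786226, minus strand: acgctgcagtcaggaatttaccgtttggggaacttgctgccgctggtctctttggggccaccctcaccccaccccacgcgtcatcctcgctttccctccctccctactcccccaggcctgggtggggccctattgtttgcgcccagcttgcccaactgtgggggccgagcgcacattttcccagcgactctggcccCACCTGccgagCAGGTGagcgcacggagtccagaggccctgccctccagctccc

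Counted from the RefSeq start that each window ends at, the matches began at -232 and -116 in DSG2, at -178 and -85 in DSP and at -54 and -43 in JUP. These starts lie inside the gene spans given below, so some matches also fall inside those spans. The second JUP start in the table, further upstream, had no match. Levels of factors known to bind E-boxes differed widely. TCF3, the gene of E2A proteins, stood at 91.8 to 195.6 CPM over the 6 libraries and is named after its values were seen. SNAI1, the Snail repressor, had 56, 142 and 192 counts in the untreated libraries, against 113, 199 and 238 in the treated ones, with a log2 fold change of 0.47 (SE 0.40; edgeR adjusted p = 0.9999), which was 0.15 without untreated 1, 0.85 without untreated 3 and 0.74 without treated 1. SNAI2 and ZEB1 had 1 count each, both in untreated 3, and ZEB2 had 0 in all 6 libraries, where 3 counts in the smallest library would be 0.192 CPM (counts scaled to library size, with TMM factors for composition wherever levels are given).

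The 6 libraries held from 15608937 to 18324599 counts, the fewest in untreated 1. Mitochondrial transcripts made up 4.16% of the counts of untreated 1 and from 7.01% to 8.11% of those of the other 5 libraries. On the first principal component of log2 CPM, with 50.1% of the variance, untreated 1 and untreated 3 lay at the ends (-56.0 and 43.2), and the other libraries lay from -13.4 to 23.8. The epithelial markers VIL1, EPCAM and KRT8 were abundant, with at least 520, 740 and 3670 CPM in every library. Of the same list of 11 markers, some enterocyte genes were far lower. FABP1 stood at 12.6 to 30.0 CPM, SI at 0.900 to 7.20 CPM and APOA4 at 0.559 to 1.40 CPM. KRT20 had no more than 5 counts. ALPI, also on that list, stood at 22.8 to 49.6 CPM and was above FABP1 in every library. The labels name the cell type as stem cells. Of 16 macrophage and monocyte markers, 6 had enough counts to test. Their summed level over all 16 was 77 to 89.9 CPM in untreated and 71.7 to 79.1 CPM in treated cells, mostly CD74, with CD68, C1QA, C1QB and TYROBP at 0 in every library. The 9 fibroblast markers summed to 69.6 to 80.7 CPM and 70.7 to 94.5 CPM, with FAP at 0. Most of that sum was PDGFRA, at 29.4 to 53.7 CPM, and COL1A1, at 20.0 to 35.5 CPM.

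Per unit of gene length, the 10 genes spanned a wide range, from E-cadherin at the top to desmocollin 2 at the bottom. These levels are the authors' FPKM values, fragments scaled to gene length and library depth, which allow genes to be set against each other. CDH1 stood at 177 FPKM on average, rank 134 of 12533 tested protein-coding genes. JUP followed at 149 and CDH17 at 136. A second tier held CTNND1 at 66.4, DSP at 65.6, CTNNA1 at 59.8, PKP2 at 58.4 and PKP3 at 41.0 FPKM. DSG2 stood at 18.7, and DSC2 at 3.68 FPKM ranked only 7823. In FPKM the order was firm at 3 steps, where the ranges over the 6 libraries did not overlap: CDH17 above CTNND1, PKP3 above DSG2 and DSG2 above DSC2. The step from CDH17 to CTNND1 rests on the gene lengths used, 3901 and 8798 bases. In CPM, without that scaling, CTNND1 was above CDH17 in all 6 libraries. The step from PKP3 to DSG2 also leans on the lengths used, 3787 and 6190 bases. In CPM their ranges overlapped, and DSG2 was above PKP3 in untreated 1, at 144 against 101. At the other steps neighbours overlapped in FPKM. CDH1 was above JUP in 5 of 6 libraries, JUP above CDH17 in 3, CTNND1 above DSP in 3, CTNNA1 above PKP2 in 5 and PKP2 above PKP3 in 4. DSP was above CTNNA1 in all 6, although their ranges overlapped.

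M2-exo left no detectable difference in any of the 10 genes. In edgeR's quasi-likelihood test, which compares counts between groups and adjusts p-values over all genes tested, 0 of the 10 passed an adjusted p of 0.05, as did 0% of the 15084 genes tested, and the adjusted p of each member was 0.9999. At an unadjusted p under 0.05 the members again gave 0, against 0.736% of genes. DESeq2 and limma-voom also called 0 members and gave 0 at an unadjusted p under 0.05. In no member did the 3 treated values lie wholly above or below the 3 untreated ones, whereas treated values lay wholly above in 1.65% of tested genes and wholly below in 2.3%. A single-gene exact permutation test of 3 against 3 could not go below p = 0.10. The log2 fold changes ran from -0.11 in CTNND1 to 0.05 in PKP3, 3 above 0 and 7 below, with a median of -0.03 against -0.01 over all tested genes. The median size of a change was 0.04 in the members and 0.10 in all tested genes. Since the RNA is from whole cultures, fewer cells that express a gene and less RNA per cell cannot be told apart.

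**Figure D1:**
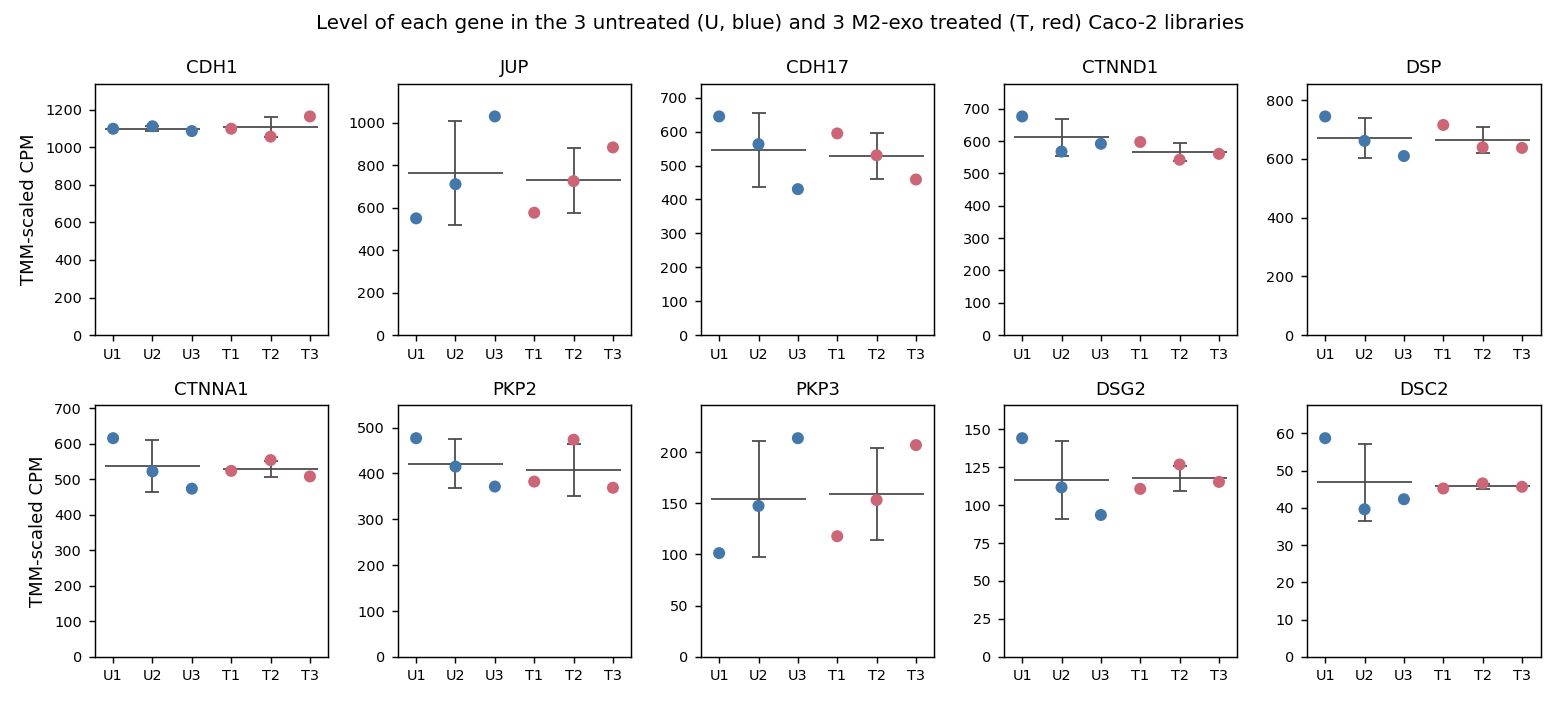
TMM-scaled CPM (linear axes from 0) of the 10 genes in each untreated (U1 to U3, blue) and M2-exo treated library (T1 to T3, red); lines and bars are the mean and SD of 3 libraries. Treated and untreated points overlap in every panel, and relative to its mean the scatter within a group is widest in JUP and PKP3.

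How large a change could have been missed differed between genes. The 95% intervals of all 10 fold changes excluded a 2-fold change in either direction, as did those of 75.8% of all tested genes and 98.7% of tested protein-coding genes with a mean of at least 100 CPM. For 8 of the 10 the interval also excluded a 1.5-fold change, a size for which no share over all tested genes is given. The exceptions were JUP (0.657-fold to 1.39-fold) and PKP3 (0.666-fold to 1.60-fold). The tightest interval was that of CDH1, from 0.839-fold to 1.21-fold.

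**Figure D2:**
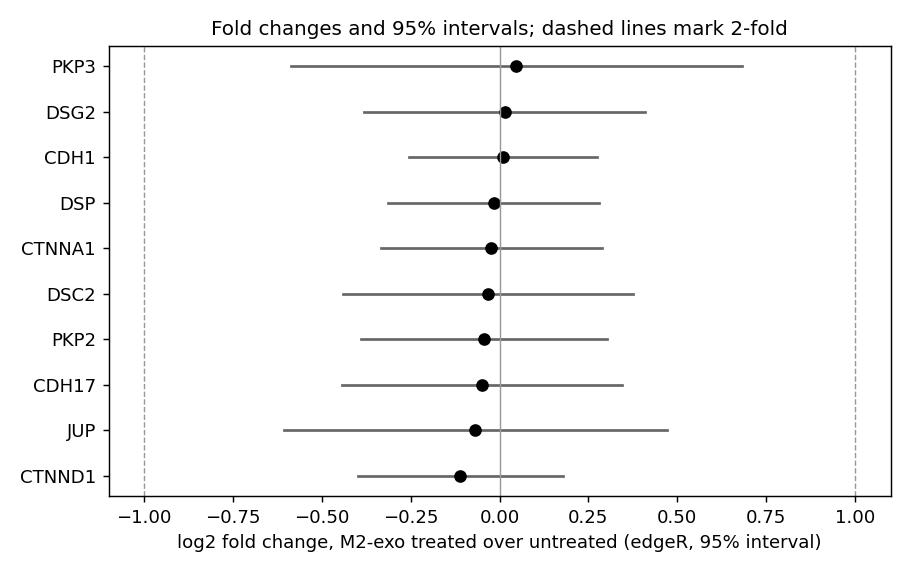
Log2 fold changes of treated over untreated cells (points) with 95% intervals from edgeR (lines), sorted by size; dashed lines mark 2-fold. All intervals span 0 and lie inside 2-fold, and JUP and PKP3 have the widest.

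Among the cadherins, CDH1 (ENSG00000039068, chromosome 16 from 68737225 to 68835548 in GRCh38) encodes E-cadherin, the core adhesion protein of the adherens junction. Its level in CPM was 1099, 1112 and 1087 in the untreated libraries numbered 1, 2 and 3 and 1099, 1057 and 1164 in the treated ones. Treated cells held both the lowest and the highest value, 1.1-fold apart. The mean was 1099 ± 12.8 CPM in untreated and 1107 ± 54.2 CPM in treated cells (SD, n = 3 per group), and the log2 fold change was 0.01 (SE 0.12). Over the 6 libraries the SD of log2 CPM was 0.046, which ranked 29th lowest of 12533 tested protein-coding genes and 14th lowest of the 2303 with a mean of at least 100 CPM.

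CDH17 (ENSG00000079112, chromosome 8 from 94127171 to 94217303) encodes LI-cadherin, an intestinal cadherin with a short cytoplasmic tail that does not bind catenins. It stood at 645, 563 and 431 CPM in untreated and 595, 530 and 459 CPM in treated libraries. In both groups the library numbered 1 was highest and the library numbered 3 lowest, and the treated values lay inside the untreated range. The means were 546 ± 108 and 528 ± 68.0 CPM (log2 -0.05, SE 0.18). Within a library, the FPKM of CDH17 was 0.929 of that of CDH1 in untreated 1 and 0.627 in untreated 3, and 0.857 in treated 1 and 0.624 in treated 3. The group means of this ratio, 0.786 ± 0.152 and 0.759 ± 0.121, differed by less than the spread within either group.

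Among the catenins, CTNND1 (ENSG00000198561, chromosome 11 from 57753243 to 57819546), the gene of p120-catenin, which holds cadherins at the membrane, had the largest fold change of the 10. It stood at 676, 568 and 592 CPM in untreated and 597, 542 and 560 CPM in treated libraries, means of 612 ± 57.1 and 567 ± 27.9 CPM. Only untreated 1 lay above all treated values, and the log2 fold change of -0.11 (SE 0.13) did not pass; it was -0.03 without untreated 1. Without treated 1 the groups no longer overlapped in this gene. With fewer libraries groups come apart more readily, and no share over all tested genes is given for that setting. CTNNA1 (ENSG00000044115, chromosome 5 from 138610967 to 138935034), the gene of alpha-catenin, stood at 615, 522 and 473 CPM in untreated cells and 523, 553 and 508 CPM in treated cells. Its treated values fell inside the untreated range (log2 -0.02, SE 0.14). Per library, CTNNA1 was between 0.305 and 0.392 of CDH1 in FPKM, and CTNND1 between 0.338 and 0.432.

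JUP (ENSG00000173801, chromosome 17 from 41754604 to 41786931) encodes plakoglobin, the armadillo protein of desmosomes that is a close relative of beta-catenin and also joins cadherins at adherens junctions. It stood at 549, 710 and 1029 CPM in untreated libraries, against 576, 724 and 883 CPM in treated ones. Untreated 3 thus had 1.87 times the level of untreated 1, and treated 3 had 1.53 times that of treated 1, while the group means were 763 ± 244 and 728 ± 154 CPM (log2 -0.07, SE 0.24). Against CTNNB1, the beta-catenin gene, the within-library FPKM ratio of JUP was 3.80, 6.94 and 9.07 in untreated and 5.54, 6.92 and 7.20 in treated libraries. Plakoglobin mRNA was thus the more abundant of the pair in all 6 libraries. CTNNB1 itself was highest in untreated 1, at 349 CPM against 247 to 296 in the other 5 (log2 -0.12, SE 0.16). The JUP and CTNNB1 genes are related in sequence, and how the counting treated reads that match several genes was not stated in the labels.

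The plakophilins, armadillo proteins that gather desmosomal cadherins and desmoplakin, differed from each other in their scatter. PKP2 (ENSG00000057294, chromosome 12 from 32790745 to 32896840), the form of simple epithelia and heart, stood at 477, 415 and 371 CPM in untreated and 382, 474 and 369 CPM in treated libraries (log2 -0.04, SE 0.15). PKP3 (ENSG00000184363, chromosome 11 from 392614 to 404908) stood at 101, 147 and 214 CPM in untreated and 118, 153 and 207 CPM in treated libraries (log2 0.05, SE 0.28). Untreated 3 had 2.11 times the PKP3 level of untreated 1, and treated 3 had 1.76 times that of treated 1. Of the summed plakophilin FPKM, PKP3 made up 28.3%, 39.8% and 51.7% in untreated and 36.4%, 37.5% and 51.0% in treated libraries. By FPKM, PKP2 was therefore the more abundant in 4 libraries, and PKP3 in untreated 3 and treated 3. That switch rests on the gene lengths used, 7043 bases for PKP2 and 3787 for PKP3. In CPM, PKP2 was above PKP3 in every library.

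DSP (ENSG00000096696, chromosome 6 from 7541575 to 7586717), the gene of desmoplakin, was steadier. It stood at 744, 661 and 610 CPM in untreated and 715, 639 and 637 CPM in treated libraries, means of 672 ± 68.0 and 664 ± 44.5 CPM (log2 -0.02, SE 0.13). Within a library the FPKM of DSP was 0.664 of that of JUP in untreated 1 and 0.290 in untreated 3, and 0.608 in treated 1 and 0.353 in treated 3. The 2 genes of the same plaque thus scattered in opposite directions.

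The desmosomal cadherins DSG2 and DSC2, the desmoglein and desmocollin of simple epithelia, lie on chromosome 18 with 395520 bases between them, DSC2 (ENSG00000134755) from 31058840 to 31102522 and DSG2 (ENSG00000046604) from 31498043 to 31549008. DSG2 stood at 144, 112 and 93.5 CPM in untreated and 111, 127 and 115 CPM in treated libraries (log2 0.01, SE 0.18). DSC2 stood at 58.7, 39.6 and 42.3 CPM in untreated and 45.2, 46.6 and 45.6 CPM in treated libraries (log2 -0.03, SE 0.18). For both genes untreated 1 was the highest of the 6 libraries, and treated values fell inside the untreated range. Without untreated 1 the DSC2 groups no longer overlapped, with treated values above. With fewer libraries groups come apart more readily, and no share over all tested genes is given for that setting. The ratio of the pair moved little: DSC2 had between 0.176 and 0.224 of the FPKM of DSG2, means of 0.201 ± 0.024 in untreated and 0.193 ± 0.010 in treated cells.

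**Figure D3:**
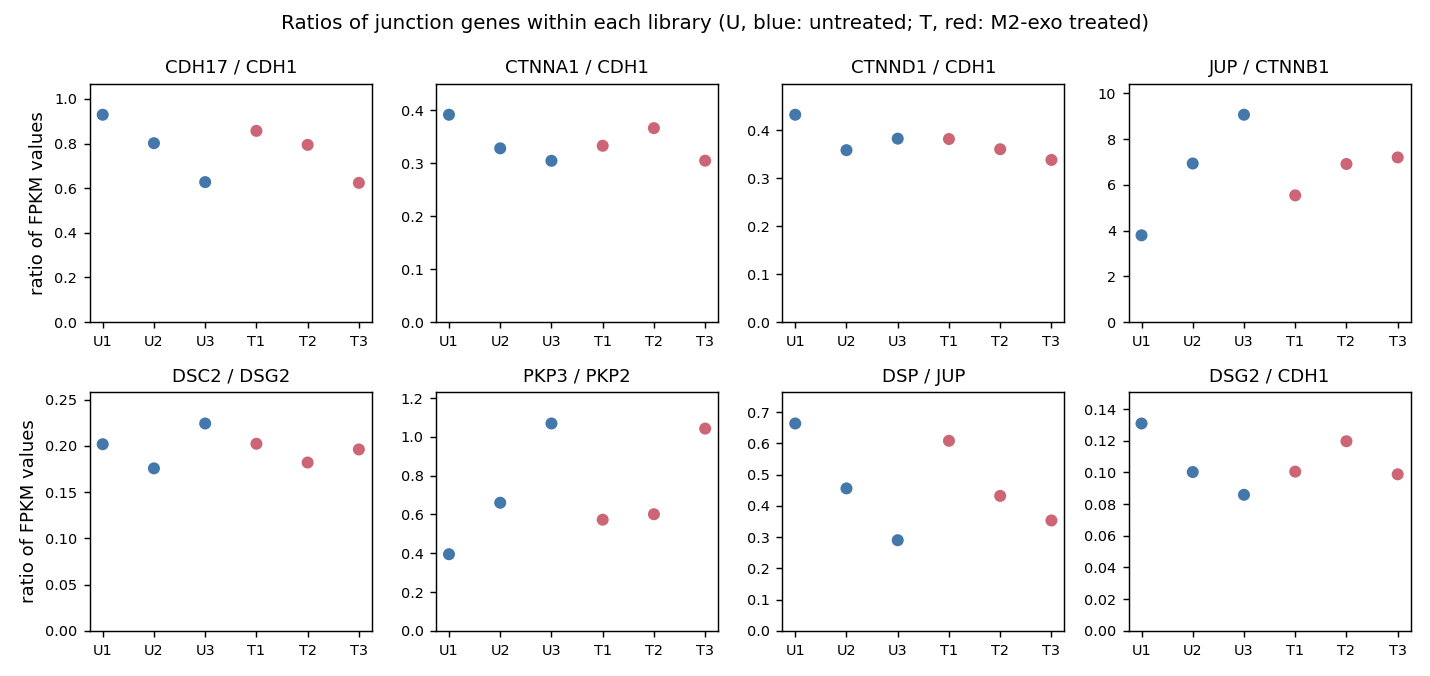
FPKM of 1 junction gene divided by that of another in the same library (linear axes from 0), for 8 pairs in untreated (U, blue) and M2-exo treated libraries (T, red). Groups overlap for every pair; JUP over CTNNB1 ranges from 3.80 to 9.07 and PKP3 over PKP2 from 0.395 to 1.07, whereas DSC2 over DSG2 stays between 0.176 and 0.224.

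As shares of the summed FPKM of the 6 desmosome genes, JUP held 36.2% to 52.5% over the 6 libraries, DSP 15.2% to 24.1%, PKP2 13.3% to 22.0% and PKP3 8.71% to 14.7%. DSG2 held 3.81% to 7.58% and DSC2 0.855% to 1.53%. Among these 6 genes the plaque genes thus held most of the sum in every library, and the cadherins the smallest shares. The lead of JUP over DSP in every library rests on the gene lengths used, 4942 and 10093 bases. In CPM, DSP was above JUP in untreated 1 (744 against 549) and treated 1 (715 against 576), and below it in the other libraries. PERP, a membrane-spanning protein of desmosomes that is not among the 6, stood higher than any of them on average, at 205 FPKM (188 to 258).

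Some members scattered together between libraries, and others in opposite directions. JUP and PKP3 were lowest in untreated 1 and treated 1 and highest in untreated 3 and treated 3, with a correlation of log2 CPM of 0.98 over the 6 libraries. CDH17 was the reverse, at -0.98 with each of them, and DSP went with CDH17 (0.92) and against JUP (-0.94) and PKP3 (-0.95). CTNNA1 and DSG2 varied together at 0.97. CDH1 followed no other member closely, with values from -0.57 to 0.28. These values describe 6 libraries whose counts share depth and library preparation. Untreated 1 was the highest of the 6 libraries in 7 members and the lowest in 2, against 30.2% and 29.4% of all tested genes. Of the 10 members, 8 had a larger SD of log2 CPM in untreated than in treated cells, as had 72.0% of tested genes. The libraries at the ends for JUP, PKP3 and CDH17, untreated 1 and untreated 3, are also those at the ends of the first principal component, and untreated 1 has the low depth and low mitochondrial share given above; the part of these in the scatter was not tested.

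**Figure D4:**
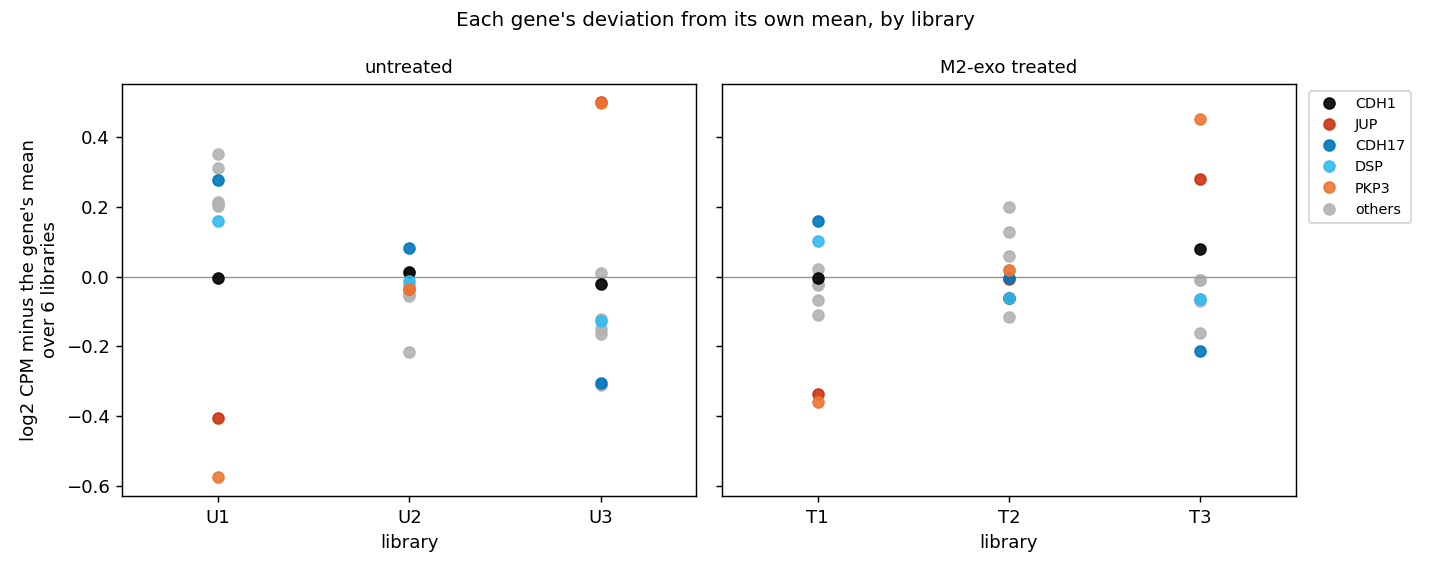
Log2 CPM of each gene minus its own mean over the 6 libraries, in untreated (left) and M2-exo treated cells (right). CDH1 stays near 0 throughout, JUP and PKP3 lie below 0 in U1 and T1 and above 0 in U3 and T3, and CDH17 and DSP lie on the opposite side in those libraries.

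In size, the scatter set JUP and PKP3 apart from the rest. Their SD of log2 CPM over 6 libraries, 0.35 and 0.43, was above that of 72.9% and 81.4% of tested protein-coding genes, and above 91.7% and 95.3% of those with a mean of at least 100 CPM. The other 8 members lay below the median of 0.23 of all tested protein-coding genes, from CDH1 at 0.046 through DSP and CTNND1 at 0.11 and CTNNA1 at 0.13 to CDH17 at 0.22. Against the median of 0.18 in the class of at least 100 CPM, however, CDH17 and DSG2 (0.21) also lay above, higher than 71.0% and 65.0% of its genes. Genes whose library pattern was most like that of CDH1, over 6 libraries and 10372 protein-coding genes with a mean of at least 5 CPM, were NAV2 (r = 0.96), PPP1R3E (0.95) and KIAA0355 (0.95). For CDH17 they were SETDB2 (0.997), ARHGAP18 (0.996) and RFC4 (0.995), and for DSP they were ELL2 (0.997), CDC23 (0.996) and UBXN4 (0.995). With 6 points and this many genes, such high values are a description only.

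The wider junction pathway was taken from 5 lists of other genes, and 0 members of any list passed the adjusted threshold in either direction or reached an unadjusted p under 0.05. Of 18 other cadherins, 13 were tested (7 above 0 and 6 below, median log2 0.10). They ran from CDH16, kidney cadherin, at 2.54 ± 0.61 and 1.35 ± 0.73 CPM (log2 -0.91, SE 0.42), to CDH26 at 0.607 ± 0.185 and 1.03 ± 0.57 CPM (0.77, SE 0.51), both of few counts. CDH26 was at 0.24 without treated 1, and CDH16 at -1.42 without treated 1. CDH2, N-cadherin, had at most 14 counts. CDH3, P-cadherin, was the sole gene tested in the 5 lists whose groups did not overlap, treated below untreated as in 2.3% of all tested genes, and is named after its values were seen. The untested CTNND2 and NECTIN4, also named after their values were seen, also had all treated values below the untreated ones, at no more than 0.19 and 0.39 CPM in any library. The CDH3 gene ends 14608 bases before CDH1 on chromosome 16. CDH3 stood at 209, 227 and 248 CPM in untreated and 200, 195 and 209 CPM in treated libraries (log2 -0.18, SE 0.13; edgeR adjusted p = 0.9999), a gap between groups of under 1 CPM.

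Of 16 other adherens junction genes, 12 were tested (8 above 0 and 4 below, median 0.01). The ends were NECTIN1, an adhesion protein that binds afadin, at 76.8 ± 23.4 and 89.2 ± 12.9 CPM (0.22, SE 0.23), and CTNNBIP1, an inhibitor of beta-catenin, at 22.8 ± 4.27 and 19.7 ± 2.27 CPM (-0.22, SE 0.20). NECTIN1 was at 0.0035 without untreated 1 and 0.44 without untreated 3, and CTNNBIP1 at -0.05 without untreated 3 and -0.33 without untreated 1. Of 10 other desmosome genes only 4 were tested, and all 4 were below 0 (median -0.16), from DSC3 at 7.47 ± 3.43 and 5.66 ± 2.07 CPM (-0.40, SE 0.39; 0.02 without untreated 1) to PKP4 at 254 ± 7.0 and 249 ± 11.1 CPM (-0.03, SE 0.12). The 6 that were not tested, DSG1, DSG3, DSG4, DSC1, PKP1 and EVPL, which are genes of stratified epithelia, had at most 6 counts in any library.

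Of 17 regulators of cadherin transcription, 11 were tested (6 above 0 and 5 below, median 0.09), from OVOL2, a repressor of mesenchymal genes, at -0.19 (SE 0.21) to KLF4, a factor of differentiated gut epithelium, at 0.56 (SE 0.35), the latter at 1.62 ± 0.51 and 2.39 ± 0.58 CPM. The 5 genes of cadherin shedding and turnover were all tested, 2 above 0 and 3 below (median -0.03). Among them, ADAM10, the protease that sheds E-cadherin, stood at 167 ± 24.5 and 157 ± 8.46 CPM (-0.09, SE 0.15), and ADAM15 at 53.5 ± 23.6 and 58.1 ± 8.04 CPM (0.12, SE 0.30).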

How the data were processed

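Raw counts for 58735 genes were deposited as whole numbers, and a second table deposited by the authors gives FPKM values, each equal to the count divided by gene length and a constant per column. Per the submitters' processing notes, the tools were CASAVA, HISAT2 and featureCounts, with GRCh38. Their versions, the strand setting and the handling of reads that match several genes were not given in the sources used. Columns headed con were read as the untreated cells. Columns headed M0_exo, 3 in the counts and 3 in the FPKM values (6 in all), match no sample and were not used, and the exosome miRNA table was not used.

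The count test was edgeR 4.0.16 under R 4.3.3 (genes kept by filterByExpr, TMM scaling, quasi-likelihood F test, 2-sided, Benjamini-Hochberg over 15084 genes at 0.05); each standard error is the size of the log2 fold change over the root of F, and levels are TMM-scaled CPM. Log2 CPM used a prior count of 2. The script was tested on simulated data. The members, lists and pairs were chosen with earlier results of these data known. Named are all 10 members, the highest and lowest fold change of each list, CTNNB1, SNAI1, SNAI2, ZEB1 and ZEB2, and the 3 genes most like CDH1, CDH17 and DSP; CDH3, CTNND2, NECTIN4, TCF3, PERP, PCDH1, the marker genes and the class of at least 100 CPM were chosen after values were seen. Alternatives were DESeq2 1.42.0, limma-voom (limma 3.58.1), RLE or total-count scaling, all genes kept, a minimum mean CPM of 1, log2(FPKM + 1), log2(FPKM + 0.1), the replicate block, and each library left out.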

Additional observations from a re-analysis of the deposited data

How the results depend on the processing

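No member was called under any of the 15 alternatives, and the members' median log2 fold change stayed between -0.09 and 0.07. The number of genes called was 6 without a filter, none a member. It ran from 0 to 1 over the libraries left out, the 1 being BOLA2B without treated 2. The number of members with groups apart ran from 0 to 1 (DSC2 without untreated 1, CTNND1 without treated 1). Groups come apart more readily with a library left out, and no share over all tested genes is given for these settings. Of the 10 members, CTNND1 alone kept its sign under every alternative. DSP turned to 0.000237 at a mean CPM of at least 1. With each library left out in turn, log2 fold changes ran from -0.0663 to 0.0697 in DSP, -0.178 to 0.0935 in CDH17, -0.0894 to 0.0933 in CTNNA1, -0.120 to 0.168 in DSC2, -0.165 to 0.0620 in PKP2, -0.171 to 0.367 in PKP3, -0.248 to 0.221 in JUP, -0.103 to 0.204 in DSG2 and -0.0134 to 0.0424 in CDH1. Among other named genes they ran from -0.642 to 0.0227 in DSC3, -0.143 to 0.0405 in ADAM10, -0.156 to 0.492 in ADAM15, -0.204 to 0.0407 in CTNNB1, -0.0420 to 0.0257 in PKP4, -0.268 to -0.0550 in OVOL2 and 0.390 to 0.851 in KLF4. CDH17, CTNNA1, DSP, DSC2, PKP2 and PKP3 changed sign without untreated 1, JUP and DSG2 without untreated 3, and CDH1 without treated 3, and some of them also without a treated library; the cause was not tested. By their labels, libraries of the 2 groups share only a number. Deviations from the group means correlated at 0.28, -0.06 and 0.48 for numbers 1 to 3. Between unlike numbers the values ran from -0.42 (untreated 3 with treated 1) to 0.18 (untreated 2 with treated 1). Whether the numbers mark a true pairing was not tested. With the replicate block edgeR called 0 genes and gave 211 at an unadjusted p under 0.05, against 111 without the block. The block fit put CDH1 at 0.01, JUP at -0.04 and PKP3 at 0.07. The standard errors of JUP and PKP3 were 0.13 each with the block, against 0.24 and 0.28 without it, so whether their intervals exclude 1.5-fold depends on the fit. List genes at an unadjusted p under 0.05 with the block were SNAI1 (0.029), PCDH1 (0.034) and CDH16 (0.046) among the junction lists, each with an adjusted p of 0.9999. Among the marker lists PDGFRA was at 0.026 in the same edgeR fit, also with an adjusted p of 0.9999. For genes of a few counts, depth allowed no test.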
